A study of Mus musculus with 8 samples.

Results

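The genes described here are 10 regulators of the integrated stress response, chosen by name: Atf4, Atf3, Atf5, Ddit3 (which encodes CHOP), Trib3, Chac1, Ppp1r15a (which encodes GADD34), Cebpb, Cebpg and Nupr1. These genes were chosen with earlier results of these data known. All 10 were found among the 49492 gene symbols of the table, and all 10 were among the 16232 genes that passed the filter on low values. Their RNA was measured by polyA RNA-seq in 8 libraries of MEFs (mouse embryonic fibroblasts, which are connective tissue cells grown in culture). The cells were immortalised MEFs with floxed Pontin alleles (Pontin f/f, the gene Ruvbl1) that had been infected with a lentivirus carrying Flag-tagged Pontin, either in its wild-type form (WT) or in a form in which the arginines methylated by CARM1 were replaced by alanine (RA). Endogenous Pontin had then been deleted with a Cre virus in both, so WT and RA cells alike lived on an added copy. Each form was kept in normal medium or in glucose starvation medium, which gave 4 groups of 2 replicates. How long these cells were starved is not given in the sources used here.

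Pontin WT and Pontin RA were compared as stably selected lines, so the form of Pontin and the line that carries it cannot be told apart. The starvation medium was glucose-free and held dialysed serum, so the loss of glucose and the dialysis of the serum cannot be told apart either. The study states in general terms that its experiments were repeated independently, but no source says whether the replicate libraries of a group came from separate cultures, and p-values therefore measure only the spread between these libraries, which may be technical. In bulk RNA, fewer cells of a type and less RNA per cell cannot be told apart.

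Cells meet a lack of amino acids, an overload of the endoplasmic reticulum, viral RNA or a lack of haem with kinases that phosphorylate the translation factor eIF2 alpha. General protein synthesis then slows, while the mRNA of Atf4 is translated better because of short reading frames in its leader. ATF4 is a transcription factor of the bZIP class that switches on genes for amino acid supply and for further regulators, among them ATF3, CHOP and TRIB3. The level of Atf4 mRNA is thus only one of the steps that set the amount of ATF4 protein, and protein was not measured here.

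The promoters of 5 of the 10 genes hold a short element that stress factors of the bZIP class are known to bind, and these stretches are shown because the genes that carry them went in opposite directions between the genotypes. The window was 250 bases before to 50 bases after each RefSeq start site in GRCm38.p6, and all 10 genes were matched, with 11 windows because Atf5 has 2 start sites in the table. The first element was the C/EBP-ATF response element, searched as TGATGNAA on both strands, and the second was the cyclic AMP response element, searched as TGACGTCA, which reads the same on both strands. Capitals mark the element, and each sequence is written along the strand of its gene.
Atf3, chr1:191183390-191183489, minus strand: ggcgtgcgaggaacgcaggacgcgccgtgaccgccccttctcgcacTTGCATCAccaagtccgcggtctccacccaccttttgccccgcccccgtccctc
Chac1, chr2:119351003-119351102, plus strand: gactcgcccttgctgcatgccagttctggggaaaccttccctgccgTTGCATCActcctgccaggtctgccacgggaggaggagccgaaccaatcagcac
Nupr1, chr7:126625527-126625626, minus strand: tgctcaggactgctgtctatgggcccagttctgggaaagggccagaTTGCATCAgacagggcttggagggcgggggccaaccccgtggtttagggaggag
Trib3, chr2:152344028-152344057, minus strand: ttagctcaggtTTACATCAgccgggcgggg
Ppp1r15a, chr7:45526269-45526368, minus strand: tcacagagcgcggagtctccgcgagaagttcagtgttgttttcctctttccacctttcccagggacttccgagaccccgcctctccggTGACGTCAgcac

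The first 4 hold the C/EBP-ATF element in reverse orientation. It begins 110 bases before the start site in Atf3 and in Nupr1, 193 bases before it in Chac1 and 14 bases after it in Trib3. Ppp1r15a holds the cyclic AMP response element 12 bases before its start site. Of all 32851 promoter windows, 3.97% held the first element and 1.79% the second. The windows of Atf4, Atf5, Ddit3, Cebpb and Cebpg held neither set of letters. The endoplasmic reticulum stress element, searched on both strands, was in 0.119% of all windows and in 0 of the 11. A match describes letters in a window and not a bound site.

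The values below are CPM, counts brought to one shared total, with library sizes adjusted by the authors, and differences are on the log2(value + 1) scale with their standard error (SE). A gene was called at a Benjamini-Hochberg (BH) adjusted p under 0.05 in limma, adjusted over all 16232 genes. Between 43205841 and 56363034 reads lay behind a library, so that 3 reads were worth 0.0548 to 0.069. Every member was far above this: the lowest value of any member was 14.3, for Atf3 in WT in normal medium, from 709 reads.

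Starvation raised all 10 regulators in both genotypes. The largest rises in WT were in Ddit3, Ppp1r15a, Chac1, Trib3 and Atf3, which rose 9.06- to 17.8-fold, and the smallest were in Atf4 and Cebpg at 2.18- and 2.22-fold. In WT, 78.6% of all genes were called, 39.3% as higher and the rest as lower, and in RA 68.7% were called, 35.0% as higher. The median log2 difference of the 10 genes was 2.63 in WT and 1.94 in RA, beside 0.0049 and 0.013 over all genes tested. In both genotypes every starved library lay above every library in normal medium for all 10 genes. Starved and normal libraries did not overlap for 88.7% of all genes in WT and 83.3% in RA.

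Atf4, the centre of the response, measured 406 and 412 in the WT libraries kept in normal medium and 866 and 921 in those starved, while RA gave 433 and 465 in normal medium and 1014 and 999.8 when starved. Both genotypes raised it by a similar factor, and the starved RA libraries lay above the starved WT libraries. The rise was 1.12 in WT (SE 0.0431, limma BH-adjusted p = 1.74e-13) and 1.16 in RA (SE 0.0431, limma BH-adjusted p = 2.86e-13). Atf5, a close relative of Atf4 that is also translated better under stress, measured 95.4 and 97.6 in the WT libraries kept in normal medium and 261 and 259 in those starved, while RA gave 100.1 and 99 in normal medium and 312 and 299 when starved. Its rise was 1.42 in WT and 1.61 in RA, the larger one in RA.

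Atf3, an early bZIP factor that dampens the transcription of many stress genes, went in WT from 14.6 and 14.3 to 131 and 130.3, and in RA from 16.8 and 18.3 to 87.6 and 89.5. The starved RA libraries thus lay well below the starved WT libraries, although RA began slightly higher. Cebpb, a bZIP factor that pairs with CHOP, went in WT from 28.7 and 30.8 to 89.2 and 93.2, and in RA from 29 and 32 to 95.6 and 77.5. One starved RA library lay above both starved WT libraries and the other below both, and relative to its mean this was the widest spread between replicates among the 10 genes. Cebpg, a widely expressed partner of ATF4 that lacks an activating domain of its own, went in WT from 32.9 and 33 to 72.8 and 73.9, and in RA from 32.3 and 32.1 to 77.9 and 74.4. Its rise was 1.13 in WT and 1.22 in RA.

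Ddit3, which encodes the pro-apoptotic bZIP factor CHOP, measured 48.7 and 49.7 in the WT libraries kept in normal medium and 854 and 902 in those starved, while RA gave 49.6 and 52.7 in normal medium and 664 and 658 when starved. The genotypes began level and both starved groups were more than 10-fold higher, with starved RA below starved WT. The rise was 4.13 in WT (SE 0.041, limma BH-adjusted p = 1.44e-20) and 3.67 in RA (SE 0.041, limma BH-adjusted p = 3.96e-19), rank 5 and rank 4 from the top among 16232 genes. Nupr1, a small chromatin protein induced by many stresses, went in WT from 46.7 and 47.2 to 209 and 220.1, and in RA from 56.1 and 57 to 152 and 155. RA began above WT and ended below it.

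Ppp1r15a, the phosphatase subunit that removes the phosphate from eIF2 alpha and so brings translation back, measured 39.6 and 37.3 in the WT libraries kept in normal medium and 566 and 584 in those starved, while RA gave 49.6 and 53.7 in normal medium and 383 and 398 when starved. The order of the genotypes turned over between the media. The rise was 3.87 in WT (SE 0.0455, limma BH-adjusted p = 6.46e-20, rank 11) and 2.90 in RA (SE 0.0455, limma BH-adjusted p = 1.02e-17, rank 28). Trib3, a pseudokinase that binds ATF4 and AKT and holds ATF4 activity back, went in WT from 21.4 and 20.4 to 221 and 232, and in RA from 27.3 and 26.8 to 347 and 339.8. Here RA was above WT in both media. Chac1, an enzyme that breaks down glutathione, went in WT from 16.9 and 17.5 to 229 and 230.2, and in RA from 24.2 and 25.8 to 249.5 and 246. The gap between the genotypes was wide in normal medium and small after starvation.

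**Figure D1:**
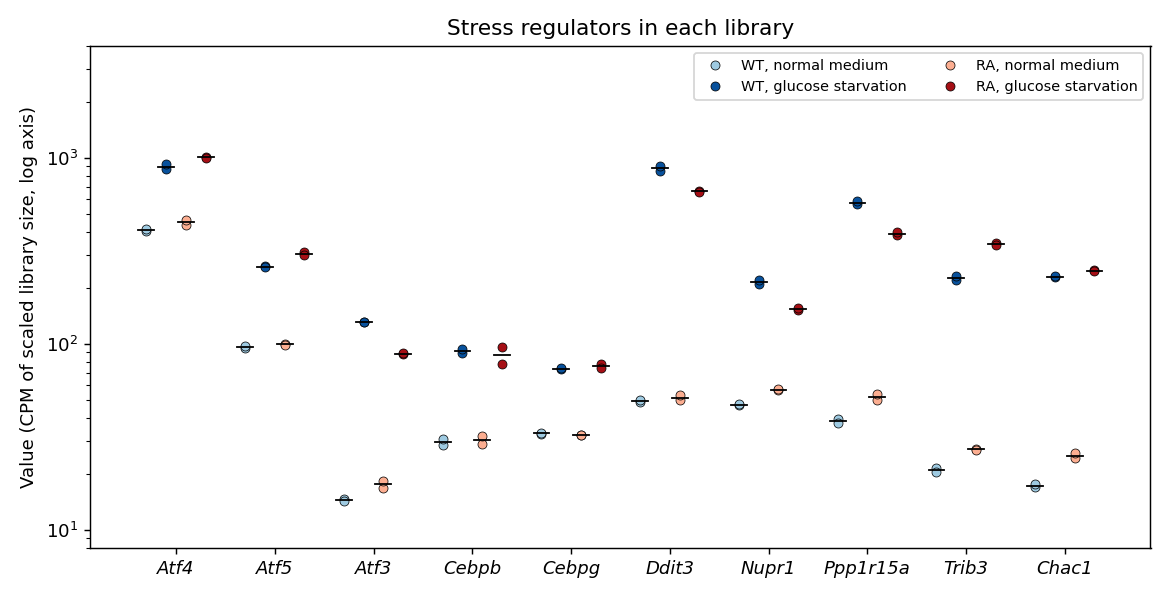
Value of each of the 10 regulators in every library, in CPM of the scaled library size on a log axis, with 1 point per library and a black bar at the mean of the 2 replicates of a group. Starved libraries lie above those in normal medium for every gene, and starved RA lies below starved WT for Atf3, Ddit3, Nupr1 and Ppp1r15a and above it for Trib3.

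**Figure D2:**
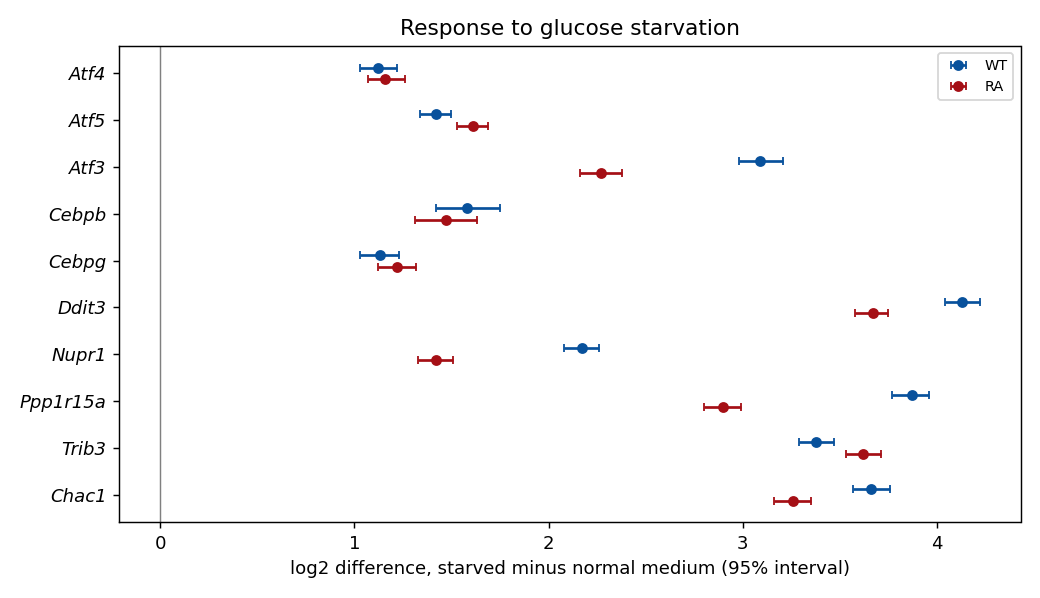
Response of the 10 regulators to glucose starvation in WT and RA, as the log2 difference between starved and normal medium on the log2(value + 1) scale, with 95% intervals from limma. All intervals lie above 0, and those of Ppp1r15a, Atf3, Nupr1, Ddit3 and Chac1 lie lower in RA than in WT.

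Before starvation, the regulators that differed between the lines were all higher in RA. Chac1, Ppp1r15a, Trib3, Atf3 and Nupr1 were called higher, 5 of 10 genes, and none was called lower. Of all genes, 9.63% were called in this comparison, 6.68% as higher and 2.95% as lower. The direction of the calls over all genes turned with the scaling of the libraries, from 69.4% higher as deposited to 40.5% higher with scaling to total reads, while the 5 calls among the regulators stood as 5 higher under both. The differences were 0.51 for Chac1 (SE 0.045, limma BH-adjusted p = 6.06e-07), 0.42 for Ppp1r15a (SE 0.0455, limma BH-adjusted p = 9.34e-06), 0.36 for Trib3 (limma BH-adjusted p = 3.07e-05), 0.27 for Atf3 (limma BH-adjusted p = 0.00425) and 0.26 for Nupr1 (limma BH-adjusted p = 4.49e-04). The median over the 10 genes was 0.20, beside 0.0075 over all genes tested.

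The transcription factors Ddit3, Atf5, Cebpb and Cebpg did not pass the test in normal medium. The 95% interval of the Ddit3 difference ran from -0.033 to 0.14, that of Atf5 from -0.035 to 0.13, that of Cebpg from -0.13 to 0.068 and that of Cebpb from -0.13 to 0.19. The libraries of both lines overlapped for Ddit3 and Cebpb. For Atf4 both RA libraries lay above both WT libraries, with a difference of 0.13 (limma BH-adjusted p = 0.0628, 95% interval 0.042 to 0.22). That difference was called without replicate 1 of starved WT (limma BH-adjusted p = 0.0477), without replicate 2 of starved WT (0.0472) and without replicate 1 of RA in normal medium (0.0134). Over its 22 alternatives the adjusted p ran from 0.0134 to 0.328. The call of Atf3 was lost in a fit of only the groups compared (limma BH-adjusted p = 0.0618) and without the mean-variance trend (0.0531), and its adjusted p began at 0.00131 over the alternatives. In this medium 7 of the 10 genes were higher in both RA libraries than in both WT libraries, and Cebpg was lower in both, while the libraries did not overlap for 53.2% of all genes.

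Under starvation the regulators split by direction. Atf3, Ppp1r15a, Nupr1 and Ddit3 were lower in starved RA than in starved WT, at 0.678, 0.68, 0.713 and 0.753 of its level, and Trib3, Atf5, Atf4 and Chac1 were higher, at 1.52, 1.17, 1.13 and 1.08 times its level. So 8 of the 10 were called, 4 higher and 4 lower, where 62.9% of all genes were called, 30.8% as higher and 32.1% as lower. The share of regulators called in each direction was close to that of all genes, and the median over the 10 genes was -0.014 beside -0.0081 over all genes. The libraries of the genotypes did not overlap for 9 of the 10 genes and for 81.5% of all genes.

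The differences under starvation were -0.56 for Atf3 (SE 0.0532, limma BH-adjusted p = 1.1e-07), -0.55 for Ppp1r15a (SE 0.0455, limma BH-adjusted p = 1.53e-08), -0.49 for Nupr1 (SE 0.041, limma BH-adjusted p = 2.32e-08) and -0.41 for Ddit3 (SE 0.041, limma BH-adjusted p = 2e-07). Trib3 was the most raised, by 0.60 (SE 0.0435, limma BH-adjusted p = 3.36e-09), with both starved RA libraries more than 100 above both starved WT libraries. Atf5 was higher by 0.23 (limma BH-adjusted p = 4.84e-05) and Atf4 by 0.17 (limma BH-adjusted p = 0.00226). Chac1 was higher by 0.11 at a limma BH-adjusted p of 0.0447, and over its 22 alternatives the adjusted p ran from 0.0066 to 0.192. The Chac1 call was lost with median-ratio scaling (limma BH-adjusted p = 0.0879), without the filter (0.0696) and without the mean-variance trend (0.106). It was also lost with DESeq2 (DESeq2 BH-adjusted p = 0.0571) and without any 1 of the 4 starved libraries. The difference was 0.10 and 0.11 without replicate 1 or 2 of starved WT, and 0.098 and 0.12 without replicate 1 or 2 of starved RA. Cebpg differed by 0.054 (95% interval -0.046 to 0.15) and did not pass the test.

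Cebpb differed by -0.082 under starvation (limma BH-adjusted p = 0.364), and this value rested on the replicates of starved RA, which stood at 95.6 and 77.5. Without replicate 1 of starved RA it was -0.23 (limma BH-adjusted p = 0.0139), and without replicate 2 it was 0.068 (limma BH-adjusted p = 0.45). Over its 22 alternatives the adjusted p ran from 0.0139 to 0.708.

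**Figure D3:**
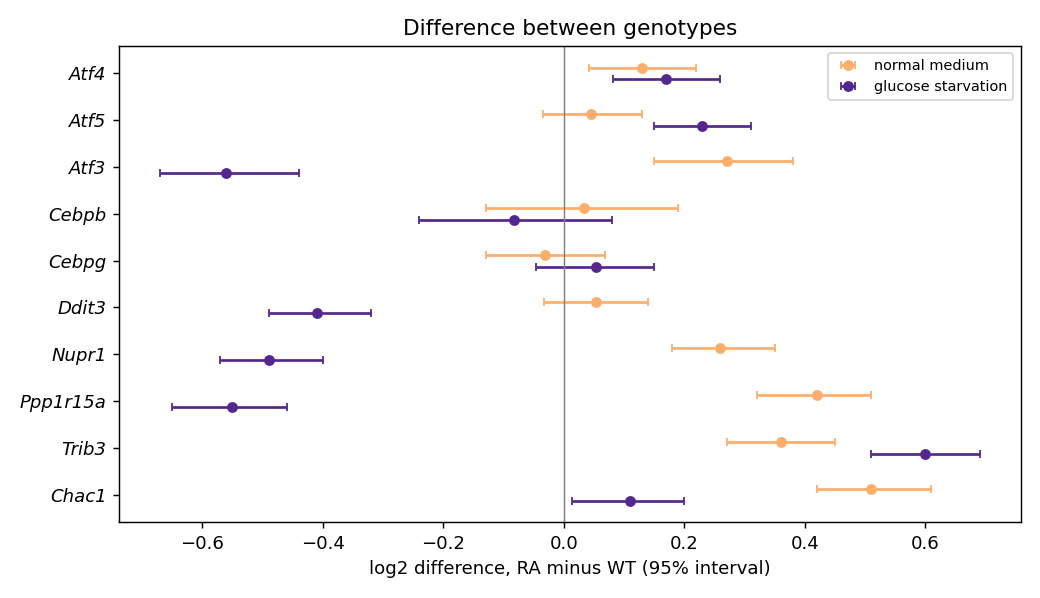
Difference between RA and WT (RA minus WT, log2(value + 1) scale) for the 10 regulators in normal medium and under glucose starvation, with 95% intervals from limma. Atf3, Nupr1 and Ppp1r15a lie above 0 in normal medium and below 0 under starvation, Ddit3 lies near 0 and then at -0.41, and Trib3 lies above 0 in both.

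Whether the response itself differed between the lines was tested with the interaction, which subtracts the WT response from that of RA and uses the same 8 libraries as the comparisons above. It was lower in RA for Ppp1r15a, Atf3, Nupr1, Ddit3 and Chac1 and higher in RA for Trib3 and Atf5, so 7 of 10 genes were called, 2 higher and 5 lower. Among all genes 50.6% were called, 24.5% as higher and 26.1% as lower, and with scaling to total reads 58.1% of the calls were higher, against 48.4% with the values as deposited. The median over the 10 genes was -0.26, beside -0.011 over all genes.

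Ppp1r15a had the largest difference in response, -0.97 (SE 0.0643, limma BH-adjusted p = 2.58e-09), the 200th lowest of 16232 genes. Atf3 followed at -0.82 (SE 0.0752, limma BH-adjusted p = 1.43e-07) and Nupr1 at -0.75 (SE 0.058, limma BH-adjusted p = 1.79e-08). For Ddit3 the difference was -0.46 (SE 0.0579, limma BH-adjusted p = 5.37e-06) and for Chac1 it was -0.41 (SE 0.0636, limma BH-adjusted p = 5.61e-05). These 5 kept their sign under all 21 alternatives of the interaction. The starved level of Chac1 was not lower in RA, and its level in normal medium was 1.45 times that of WT.

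Trib3 was the regulator whose response was larger in RA by the widest margin, 0.24 (SE 0.0615, limma BH-adjusted p = 0.00407). Atf5 followed at 0.19 (SE 0.0533, limma BH-adjusted p = 0.00801). The Atf5 call was lost without replicate 1 of starved RA (0.16, limma BH-adjusted p = 0.0568) and without the mean-variance trend (0.0569), within a range of adjusted p that began at 8.37e-04. The response of Atf4 itself was not shown to differ, at 0.04 with a 95% interval of -0.089 to 0.17, and neither was that of Cebpg, at 0.086 with an interval of -0.055 to 0.23. For Cebpb the value was -0.12 (limma BH-adjusted p = 0.395). It was -0.26 without replicate 1 of starved RA (limma BH-adjusted p = 0.032) and 0.034 without replicate 2 (limma BH-adjusted p = 0.795), and these are the ends of its range of adjusted p.

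The 4 genes with a C/EBP-ATF element in the window did not move alike. The response of Atf3, Nupr1 and Chac1, each with TTGCATCA before the start site, was smaller in RA, and that of Trib3, with TTACATCA after it, was larger. Ppp1r15a, with the cyclic AMP response element, had a smaller response in RA, and so did Ddit3, whose window held neither element. Atf5, whose windows held neither element either, had a larger response in RA. These directions are those of the interaction: within starved cells Chac1 (0.11), like Trib3 (0.60), was higher in RA than in WT. Whether an element or its place bears on the direction was not tested.

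Levels of different genes can be set side by side only per length, for which each value was divided by the exonic length of the gene in GENCODE M21. That length joins all annotated exons of the gene, and the annotation used for the counts is not given. The SDs below cover the spread between replicates and not an error in length, so the order of genes depends on these lengths. In WT in normal medium Atf4 was the most abundant regulator at 173 ± 1.74 per kb (SD, n = 2). It was followed by Atf5 at 48.4 ± 0.779, Ddit3 at 28.7 ± 0.431, Cebpb at 19.8 ± 1.02, Nupr1 at 18.7 ± 0.143, Ppp1r15a at 13.1 ± 0.549, Chac1 at 10.5 ± 0.26, Trib3 at 9.82 ± 0.317, Atf3 at 6.7 ± 0.0908 and Cebpg at 5.86 ± 0.00984. The neighbours Cebpb and Nupr1 lay within their summed SDs.

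In starved WT the order changed, with Ddit3 at the top at 513 ± 19.8 per kb and Atf4 next at 379 ± 16.7. Before division by length, the mean of Ddit3 in starved WT was 878, below the 894 of Atf4, so the order of this pair rests on the lengths used. Ppp1r15a followed at 196 ± 4.38, Chac1 at 140 ± 0.53, Atf5 at 130 ± 0.741, Trib3 at 107 ± 3.6 and Nupr1 at 85.4 ± 3.01. Atf3 at 60.7 ± 0.239 and Cebpb at 60.6 ± 1.88 could not be told apart, and Cebpg was lowest at 13 ± 0.144. In starved RA the places of the top pair were exchanged, with Atf4 at 427 ± 4.25 per kb and Ddit3 at 386 ± 2.59. Trib3 came next at 162 ± 2.54, above Ppp1r15a at 133 ± 3.65, while Atf5 at 153 ± 4.62 and Chac1 at 151 ± 1.62 lay within their spread. Nupr1 at 60.9 ± 0.899 and Cebpb at 57.6 ± 8.51 lay within theirs too, above Atf3 at 41.1 ± 0.63 and Cebpg at 13.6 ± 0.438.

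Ratios within a library do not depend on its scaling, and they are given as a description of levels per kb with no test. The ratio of Ddit3 to Atf4 was 0.165 and 0.166 in WT in normal medium and 0.158 and 0.156 in RA in normal medium. It was 1.36 and 1.35 in starved WT and 0.902 and 0.906 in starved RA. Per kb, with the lengths used here, Ddit3 thus exceeded Atf4 in both starved WT libraries and stayed below it in both starved RA libraries. The ratio of Ppp1r15a to Atf4 was 0.0782 and 0.0727 in WT and 0.0919 and 0.0927 in RA in normal medium, and 0.525 and 0.509 in starved WT against 0.304 and 0.32 in starved RA.

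Trib3 went the other way relative to Atf4. Its ratio to Atf4 was 0.0583 and 0.0549 in WT and 0.07 and 0.0641 in RA in normal medium, and 0.284 and 0.28 in starved WT against 0.38 and 0.377 in starved RA. The ratio of Trib3 to Ddit3, the inhibitor to the factor that induces it, fell from 0.353 and 0.331 to 0.209 and 0.207 in WT, whereas in RA it was 0.444 and 0.41 in normal medium and 0.422 and 0.416 under starvation.

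**Figure D4:**
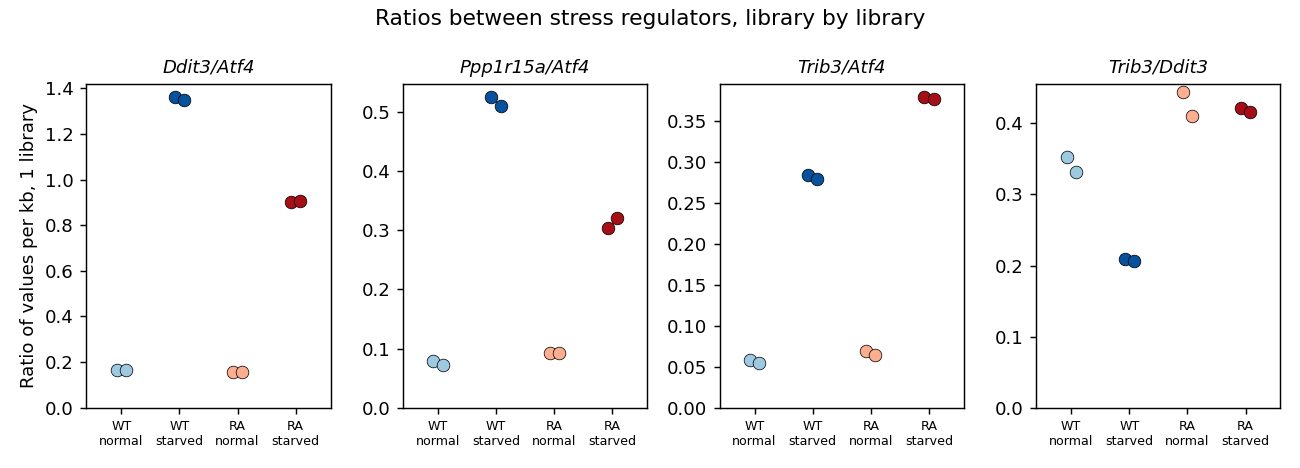
Ratio of values per kb within each library for Ddit3 to Atf4, Ppp1r15a to Atf4, Trib3 to Atf4 and Trib3 to Ddit3, with 1 point per library. In starved libraries the first pair of ratios is lower in RA than in WT (0.902 and 0.906 against 1.36 and 1.35 for Ddit3 to Atf4), and the ratios of Trib3 are higher.

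The sensors and brakes upstream of Atf4 were followed as a list of 16 kinases, translation factors and phosphatase subunits. Starvation raised 10 and lowered 5 of them in WT and raised 5 and lowered 7 in RA, and their response was lower in RA for 11 and higher for 2. Of all genes, 78.6% were called in the WT response, 39.3% as higher, and 68.7% in the RA response, 35.0% as higher. In the interaction 50.6% were called, 26.1% as lower and 24.5% as higher. A larger share of this list than of all genes was raised in WT, but not in RA. The share called lower in the interaction was also larger. Whether these shares exceed the background was not tested, and 16 genes are few for such a comparison. Eif2ak2, the kinase PKR that senses double-stranded RNA, was at 104 and 97.8 in WT in normal medium and at 21.2 and 22.1 in starved WT, but at 158 and 145 and then 129 and 129 in RA. The fall in RA was thus far smaller than that in WT, and the interaction was 1.94 (SE 0.0699, limma BH-adjusted p = 6.62e-13). The other eIF2 alpha kinases moved far less: the interaction was -0.46 for Eif2ak1 (the haem-regulated kinase HRI), 0.30 for Eif2ak4 (GCN2, the sensor of uncharged tRNA) and -0.12 for Eif2ak3 (PERK, the sensor of the endoplasmic reticulum), of which the last did not pass the test. Impact, an inhibitor of GCN2, rose by 1.80 in WT and 1.10 in RA. Dnajc3, which encodes the chaperone P58IPK that inhibits PERK and PKR, rose by 1.56 in WT and 0.79 in RA. Ppp1r15b, the constitutive counterpart of Ppp1r15a, rose by 0.58 in WT. Within RA its starved level was 0.095 above that in normal medium, which did not pass the test (limma BH-adjusted p = 0.0575).

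Most of the close paralogs that could be tested went the other way from the regulators. Of 11 listed, 7 were abundant enough to test, and 5 of these fell in both genotypes. Among the 16232 genes tested, 6369 were called lower in WT and 5470 in RA. Whether the paralogs fell more often than this background was not tested, and 7 genes are few for such a comparison. Trib1 and Trib2, relatives of Trib3 that steer the breakdown of C/EBP proteins, fell in WT from means of 35.7 to 9.09 and 12.2 to 0.345, and in RA from 39.8 to 21.9 and 11 to 1.93. Cebpd fell by 1.38 in WT and by 0.37 in RA. The falls were smaller in RA, with an interaction of 1.03 for Trib1 and 1.25 for Trib2, and Cebpd passed the same test (limma BH-adjusted p = 2.09e-07). Jdp2, the nearest relative of Atf3, rose by 0.94 in WT and 0.99 in RA.

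Of 39 other bZIP factors, 33 were tested. Starvation raised 20 and lowered 9 in WT and raised 17 and lowered 9 in RA, and the interaction was higher for 5 and lower for 11, which sets 16 of 33 beside the 50.6% of all genes. The interaction count thus lies near that of all genes. Larger shares of the bZIP factors than of all genes were raised, as 39.3% of all genes were called higher in WT and 35.0% in RA. Whether the raised shares exceed this background was not tested. Atf6, the membrane-bound factor of the unfolded protein response, rose by 1.78 in WT cells and 1.15 in RA, and Mafg, a small MAF protein that pairs with NRF factors, by 1.39 and 0.98. Creb3l1, another membrane-bound factor, fell in WT from a mean of 30.9 to 11.6, whereas its means in RA were 32.7 in normal medium and 32 under starvation, with an interaction of 1.31 (limma BH-adjusted p = 5.97e-09).

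Genes known as targets of ATF4 rose with it in both genotypes. All 12 genes of amino acid synthesis and one-carbon metabolism rose in WT and in RA, as did 9 of 10 amino acid transporters in each. Among the tRNA synthetases 13 of 13 rose in WT and 12 in RA. The share of all genes called higher was 39.3% in WT and 35.0% in RA. The median rise in WT and RA was 1.70 and 1.53 for synthesis, 1.54 and 1.39 for transport, and 1.06 and 0.87 for the tRNA synthetases. Cth, the cystathionine lyase that makes cysteine, rose by 2.94 in WT and 2.99 in RA. Aldh1l2, a mitochondrial folate enzyme, rose by 2.82 and 2.49, and Slc7a3, a carrier of cationic amino acids, by 3.66 and 3.21. Slc6a9, a glycine transporter, rose by 2.54 and 2.10, and among the tRNA synthetases Sars rose by 1.57 and 1.48 and Nars by 1.34 and 1.05.

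The interaction was lower in RA for 7 of 12 genes of synthesis, 7 of 10 transporters and 7 of 13 tRNA synthetases, and higher only for Lars (0.40) among these 3 lists, where 26.1% of all genes were called lower and 24.5% higher. With scaling to total reads 6, 4 and 4 genes were called lower, and Psat1 of serine synthesis, named after its value was seen, was called higher beside Lars (0.14, limma BH-adjusted p = 0.0231). With edgeR at an adjusted p under 1e-05 the calls in the 3 lists numbered 0, 1 and 1. The call among the transporters was lower in RA and that among the tRNA synthetases was higher. The interaction was -0.56 for Slc3a2, the heavy chain shared by several amino acid exchangers, -0.44 for Pycr1 of proline synthesis, -0.36 for the mitochondrial serine enzyme Shmt2 and -0.37 for Wars. List medians were -0.20 for synthesis, -0.20 for transport and -0.15 for the tRNA synthetases, between the 0.04 of Atf4 and the -0.46 of Ddit3.

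Other ATF4 targets for stress signalling and secreted factors rose in 11 of 12 cases in both genotypes. Over all genes, 39.3% were called higher in WT and 35.0% in RA. Stc2, a secreted glycoprotein, rose by 3.52 in WT cells and 2.90 in RA, and Herpud1, which helps to clear proteins from the endoplasmic reticulum, by 3.04 and 3.02. The exception was Angptl4, a secreted inhibitor of lipoprotein lipase, which fell in WT from a mean of 12.4 to 0.499, and in RA from 13.7 to 1.6. Its interaction was 0.66 with 1 added to each value, but its size depended on this number because the starved values were low. It was 1.39 with 0.1 added, 1.55 with edgeR, and 0.16 with 5 added, where the call was lost (limma BH-adjusted p = 0.147). In the interaction 3 genes of the list were called higher and 3 lower, again near the background of 50.6%.

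The genes linked to CHOP formed a list of 8, of which 5 rose in each genotype. Over all genes, 39.3% were called higher in WT and 35.0% in RA. Ero1l, an oxidase that forms disulfide bonds, rose by 3.20 in WT cells and 2.69 in RA, and Pmaip1, which encodes the pro-apoptotic protein NOXA, by 2.70 and 2.12. Car6, a secreted carbonic anhydrase, rose by 3.48 and 3.38 from values below 1. Bcl2, the anti-apoptotic gene that CHOP is known to repress, fell in WT from a mean of 7.6 to 3.61, whereas its means in RA were 7.58 in normal medium and 7.16 under starvation, with an interaction of 0.83 (limma BH-adjusted p = 2.16e-04). In all 2 genes of this list were called higher and 2 lower in the interaction, a share near the 50.6% of all genes.

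The branches of the unfolded protein response that run through ATF6 and XBP1 moved in 1 direction under starvation. All 19 tested genes rose in both genotypes, with a median of 1.78 in WT and 1.28 in RA. Among all genes tested, 39.3% were called higher in WT and 35.0% in RA. All 19 were lower in starved RA than in starved WT, with a median of -0.87, where 32.1% of all genes were called lower. In normal medium 6 of the 19 were already called lower in RA and 1 higher. The shares of all genes there were 2.95% lower and 6.68% higher. The interaction was lower for 15 of the 19, with a median of -0.78, and higher for 0. It was lower for 26.1% and higher for 24.5% of all genes. For 4 of the 19 it did not pass the test, among them Herpud1 (-0.021). Calr, a calcium-binding chaperone of the endoplasmic reticulum, had means of 1589 and 6425 in normal and starved WT and 1567 and 3006 in RA, an interaction of -1.07. Dnajb9, a co-chaperone, had means of 11.6 and 122 in normal and starved WT and 11.6 and 59.1 in RA, an interaction of -1.05. Sdf2l1, another protein of the endoplasmic reticulum, had means of 21.8 and 215 in normal and starved WT and 20 and 111 in RA, an interaction of -0.82. By size these values lie beside those of Ppp1r15a (-0.97) and Atf3 (-0.82).

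**Figure D5:**
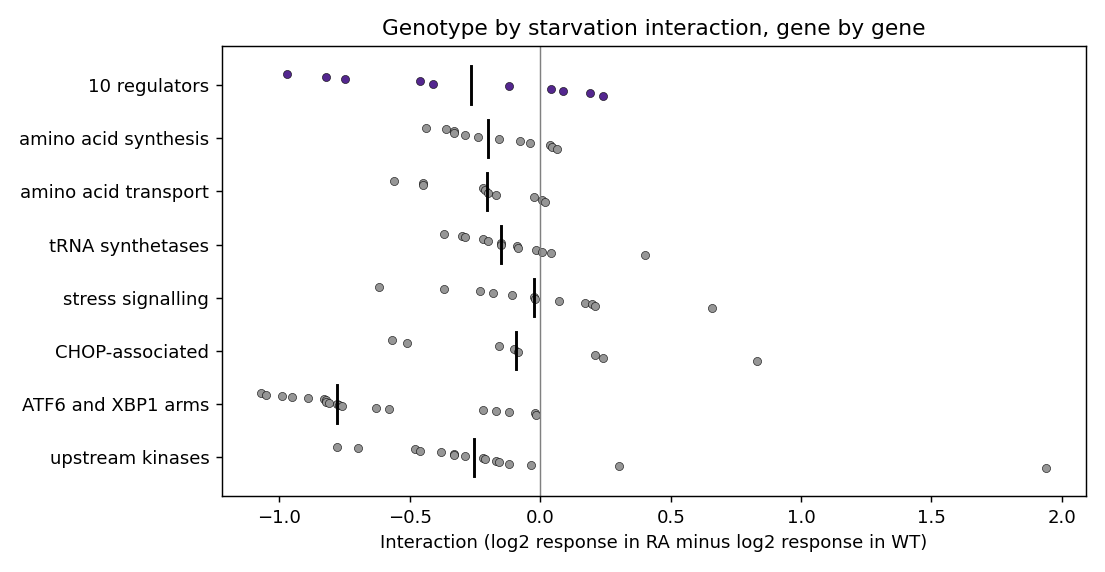
Interaction (RA response minus WT response, log2(value + 1) scale) of each tested gene, with 1 row of points for the 10 regulators and 1 for each list of pathway genes. The genes of the ATF6 and XBP1 branches lie lowest, with a median of -0.78, and the regulators run from -0.97 for Ppp1r15a to 0.24 for Trib3.

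Among 10488 genes with a mean value of at least 10, the profiles most like that of Atf4 over the 8 libraries were those of Runx1, Fibp, Vps39 and Parp8. Likeness was the root mean square difference of centred log2(value + 1), which ran from 0.0585 for Runx1 to 0.0678 for Parp8. Runx1, a transcription factor of blood development, had means of 29.9 and 68.1 in normal and starved WT and 30.7 and 73 in RA. For Ddit3 the nearest profiles were farther away, at 0.17 for Acot2, 0.246 for Slc7a3, 0.268 for Gm17114 and 0.303 for Gadd45a. Acot2, a mitochondrial acyl-CoA thioesterase, had means of 3.44 and 62.5 in normal and starved WT and 4.08 and 59.6 in RA, and Gadd45a, a growth arrest gene, with means of 11.4 and 168 in WT and 16 and 201 in RA.

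All 10 genes lie on autosomes, given here in GRCm38 from GENCODE M21, which is not the build the authors mapped to. Atf4 lies on chr15:80255184-80257541, Ddit3 on chr10:127290774-127296288, Atf3 on chr1:191170296-191218039, and Chac1, Trib3 and Cebpb on chromosome 2. Atf5, Cebpg, Nupr1 and Ppp1r15a lie on chromosome 7. Exons of some overlap those of other genes on the opposite strand, and as the handling of strand is not stated, reads over shared bases may have gone to either gene. Cebpb shares 312 bases, 20.7% of its exonic length, with Tmem189, so its value is the most uncertain. Tmem189 went in WT from 64.3 and 65.1 to 120 and 128 and in RA from 61.1 and 66.6 to 116 and 98.4, with the same split between the starved RA replicates. Ppp1r15a shares 12 bases with Tulp2, which went in WT from 141 and 153 to 400 and 408 and in RA from 150 and 165 to 276 and 274. Atf5 shares 82 bases with Nup62 and Il4i1, and Ddit3 shares 68 with Mars. On its own strand, Ddit3 also shares 105 bases, 6.13% of its exonic length, with a second GENCODE gene of the same name, and whether the row of this symbol holds reads of both is not stated.

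Markers of other cell types were read beside these results. Of 11 fibroblast markers 1, Lum, was below a value of 1 in every library. Their sum was 10905 to 11009.5 in WT and 10842 to 11187 in RA in normal medium. It fell to 5571 to 5656 in starved WT and 7362 to 7374 in starved RA. Col1a1 was at 1690 and 204 on average in normal and starved WT. Not every marker fell: Fn1 was at 2360 and 2410 on average in normal and starved WT and 2370 and 3170 in RA. Dcn was at 5.9 and 7.44 in WT and 13.5 and 34.9 in RA, and Thy1 in RA was at 278 and 282. The 8 macrophage and leukocyte markers summed to 21 to 26.3, with Ptprc at 0 or near 0 throughout, the 6 epithelial markers to 1.48 to 3.68, and the 4 of skeletal muscle to at most 0.261. The 5 endothelial markers summed to 2.72 to 3.7 and then 23 to 24.1 in WT, and 2.44 to 3.75 and then 9.19 to 10 in RA. Vwf was at 14.4 and 3.44 on average in starved WT and RA, and Kdr and Tek also rose. Pecam1 and Cdh5 went the other way, from 0.39 to 0.0693 and from 0.295 to 0.021 on average in WT. The 4 neural markers summed to 32.5 to 115 and were lower in starved cells. The part of these shifts in the values of the regulators was not tested.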

How the data were processed

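PolyA RNA was made into TruSeq RNA v2 libraries and read from both ends on an Illumina HiSeq, and the authors mapped the reads with TopHat2 2.0.9 to mm9, with bedtools and edgeR also named in the submitters' processing notes. The counter, its annotation and the handling of strand are not given in the sources used here. The authors deposited 1 table of a signal per gene, which is a read count divided by a scaled library size, in CPM. Its columns are named minus and plus and were read as normal and starved, since the study marks glucose starvation that way. The planned unit was CPM, and the same test was used. In every library the values were whole multiples of 1 read (tolerance 0.02), so reads were recovered for count tests. Of 49492 rows, 18085 were at 0 throughout and 26 bore names turned into dates.

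The 16232 genes that reached a value of 1 in 2 or more libraries were fitted as log2(value + 1), which understates the change of low genes, with limma 3.58.1 (R 4.3.3): 1 mean per group over all 8 libraries, eBayes with a trend, 2-sided p, BH adjustment per contrast over 5 contrasts. The 10 genes and the lists were chosen with earlier results of these data known. Beside the 10 genes, the text names from each list the 3 called genes with the largest WT response and the 2 with the largest interaction, and any of the upstream and paralog lists. Promoters came from RefSeq (GRCm38.p6) and exonic lengths from GENCODE M21. Read depth covers counting error only. Alternatives changed the pseudocount, the filter, the scaling, the libraries fitted, the trend, the block or the tool (edgeR 4.0.16, DESeq2 1.42.0), and left out each library in turn. The script was tested on simulated data.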

Additional observations from a re-analysis of the deposited data

Results flagged for a closer look

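The response to glucose starvation differed between Pontin RA and Pontin WT, by the interaction term over all 8 libraries (limma, BH-adjusted over 16232 genes), for 7 of the 10 regulators. The response was smaller in RA for Ppp1r15a (-0.97), Atf3 (-0.82), Nupr1 (-0.75), Ddit3 (-0.46) and Chac1 (-0.41). It was larger in RA for Trib3 (0.24) and Atf5 (0.19). Of all genes, 50.6% passed the same test.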

How the results depend on the processing

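All 10 regulators were called higher under starvation in both genotypes under each of the 22 alternatives. Over all alternatives, 1053 values of single regulators kept their sign and their side of the threshold, 23 lost a call, 6 gained one and 8 changed sign. With edgeR at an adjusted p under 1e-05 the calls fell to 3 in the interaction, 1 in normal medium and 5 under starvation, which follows from the stricter threshold. Each sign change was in a difference that did not pass the test, and its cause was not tested. With scaling to total reads the difference in normal medium was -0.0024 for Atf5 and -0.013 for Cebpb. Leaving out 1 library at a time, the interaction of Atf4 ran from -0.011 to 0.091, and Cebpb ran from -0.26 to 0.034 in the interaction, -0.036 to 0.10 in normal medium and -0.23 to 0.068 under starvation. The response of Creb3l1 in RA ran from -0.098 to 0.034 and the interaction of Herpud1 from -0.056 to 0.013. The interaction of Herpud1 was 0.05 with scaling to total reads, 0.042 with quantile normalization, 0.011 with edgeR at either threshold, and 0.01 with edgeR on halved reads, an alternative chosen after seeing the data because most low counts were even numbers. Among the pathway lists 901 counts stayed within 1.5 times and 80 did not, 24 of these with edgeR at an adjusted p under 1e-05 and 52 of the rest in normal medium. The other 4 were in the interaction: without the trend, 16 calls among other bZIP factors became 10 and 8 among tRNA synthetases became 5, and with scaling to total reads the latter became 5 and 7 among transporters became 4. At the stricter edgeR threshold the interaction calls were 5 among other bZIP factors, 1 each among tRNA synthetases and transporters, and 0 in the lists of synthesis and of stress signalling.

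Over all genes, the 1563 calls in normal medium became 650 without the filter, 590 without the trend, and 559, 830 and 939 without replicate 1 or 2 of WT and replicate 2 of RA in normal medium. At edgeR's stricter threshold, 143 were called there, 7345 in the WT response, 4944 in the RA response, 3586 under starvation and 1790 in the interaction.

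Groups share replicate numbers, but same-numbered libraries deviated together with correlations of only -0.00764 to 0.157 over 6 pairs of groups, so the numbers were not taken to pair them. With the replicate number as a block, 6 regulators were called in normal medium, with Atf4 added (limma BH-adjusted p = 0.0245), 8 under starvation and 7 in the interaction, and 2059 of all genes were called in normal medium. Each of the 10 regulators had at least 670 reads in every library, and the precision of its differences rests on 2 replicates per group.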
